A study of Mus musculus with 12 samples.

Results

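The core piRNA pathway genes are 10 mouse genes whose products make, load or use piRNAs: Piwil1, Piwil2, Piwil4, Mael, Asz1, Mov10l1, Pld6, Gtsf1, Tdrkh and Fkbp6. They were chosen by name, and each symbol matched 1 row in each of the 4 deposited tables, which makes 10 of the 22552 rows of a stage table. The tables come from messenger RNA of C57BL/6 primordial germ cells (PGCs), from which eggs and sperm descend. Wild-type cells came from embryonic days 9.5, 11.5 and 13.5 (E9.5, E11.5 and E13.5). E9.5 and E11.5 have 2 libraries each, and E13.5 has 3 titled with an m (E13.5m) and 3 titled only as wild type. Tet1-KO cells were collected at E13.5 (2 libraries) and carry the genotype Tet1 -/-. The product of Tet1 oxidises methylated cytosine in DNA. A further group, E13.5f, is named by 1 table and by the series' design text, matches no sample title, and is used here as that table gives it. No treatment is given for any group. Each table holds 1 FPKM value per group (fragments per length of transcript and total of mapped fragments), pooled by the authors, so no value of a single library can be shown and sequencing depth is unknown. The labels do not say whether libraries came from separate embryos, so the p-values may measure technical spread.

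PIWI-interacting RNAs are short RNAs of the germ line that guide PIWI proteins to transposon transcripts and, in the fetal male germ line, direct DNA methylation to transposon copies. Long precursors are unwound and cut at the mitochondrial surface, loaded into a PIWI protein with the help of chaperones, trimmed and methylated. PGCs erase most DNA methylation while they move to and settle in the gonad, so these are the stages at which transposons lose that layer of silencing.

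The promoters of the members are shown because the values of most members changed with the same sign in each comparison below. The median change over all tested genes had that sign as well in each comparison, so the sign is not particular to the members. Shared control of the members was not tested. RefSeq promoters (GRCm38.p6, 250 bases before to 50 after each annotated start, outermost start per gene) were matched for 9 of the 10 members, all but Piwil2. The search covered 4 motifs on both strands: the E-box CACGTG, the E2F site TCCCGC, the NRF1 core TGCGCA and the NF-Y box CCAAT, none of which can contain another. The E-box was found in 5 of 9 members, against 7.24% of 27025 promoters of the same length. Those 5 were Mael, Fkbp6, Mov10l1, Pld6 and Piwil1. TGCGCA was found in 3 of 9, namely Asz1, Gtsf1 and Piwil4, against 8.07% of all promoters, and in none that held the E-box. CCAAT was in 5 of 9, against 38.0%, and TCCCGC in Mael alone, against 20.1%. A match describes letters in this window and is not evidence of a bound factor. Members had a median of 18 CpG dinucleotides per 300 bases, and all promoters had 7. The E-box and the NRF1 core each contain a CpG, and the members were not compared with promoters of like CpG content. The higher shares of these motifs are therefore not shown to be particular to the members. The 4 promoters printed are 3 with an E-box from genes that were called in the knockout comparison, and that of Asz1, which was not called there. This choice leaves out the members that break the pairing: Pld6 has an E-box and was not called, and Gtsf1 and Tdrkh were called without one. Each runs 5′ to 3′ over the 250 bases up to the start, and capitals mark CACGTG or TGCGCA.
Mael (GRCm38.p6, chr1:166238745-166238994, minus strand): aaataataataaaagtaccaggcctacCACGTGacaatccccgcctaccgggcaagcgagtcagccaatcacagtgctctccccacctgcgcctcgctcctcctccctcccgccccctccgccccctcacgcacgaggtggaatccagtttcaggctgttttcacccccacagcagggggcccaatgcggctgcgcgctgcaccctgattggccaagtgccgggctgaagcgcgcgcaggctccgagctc
Fkbp6 (GRCm38.p6, chr5:135350045-135350294, minus strand): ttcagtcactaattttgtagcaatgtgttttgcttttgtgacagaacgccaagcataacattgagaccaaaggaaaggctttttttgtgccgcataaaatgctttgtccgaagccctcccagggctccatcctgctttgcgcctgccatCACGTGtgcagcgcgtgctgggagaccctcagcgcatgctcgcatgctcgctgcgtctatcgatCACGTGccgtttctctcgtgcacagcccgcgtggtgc
Mov10l1 (GRCm38.p6, chr15:88982744-88982993, plus strand): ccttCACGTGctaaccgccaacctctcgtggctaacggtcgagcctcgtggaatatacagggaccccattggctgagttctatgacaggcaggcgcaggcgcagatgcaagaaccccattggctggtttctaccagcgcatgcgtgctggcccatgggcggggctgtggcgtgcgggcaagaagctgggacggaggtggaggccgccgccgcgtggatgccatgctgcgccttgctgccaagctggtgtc
Asz1 (GRCm38.p6, chr6:18109062-18109311, minus strand): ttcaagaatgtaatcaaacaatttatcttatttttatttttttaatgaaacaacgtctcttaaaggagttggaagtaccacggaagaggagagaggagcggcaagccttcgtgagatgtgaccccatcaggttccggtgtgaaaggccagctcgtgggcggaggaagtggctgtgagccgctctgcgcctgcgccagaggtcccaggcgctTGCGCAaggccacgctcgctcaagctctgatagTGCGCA

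**Figure D1:**
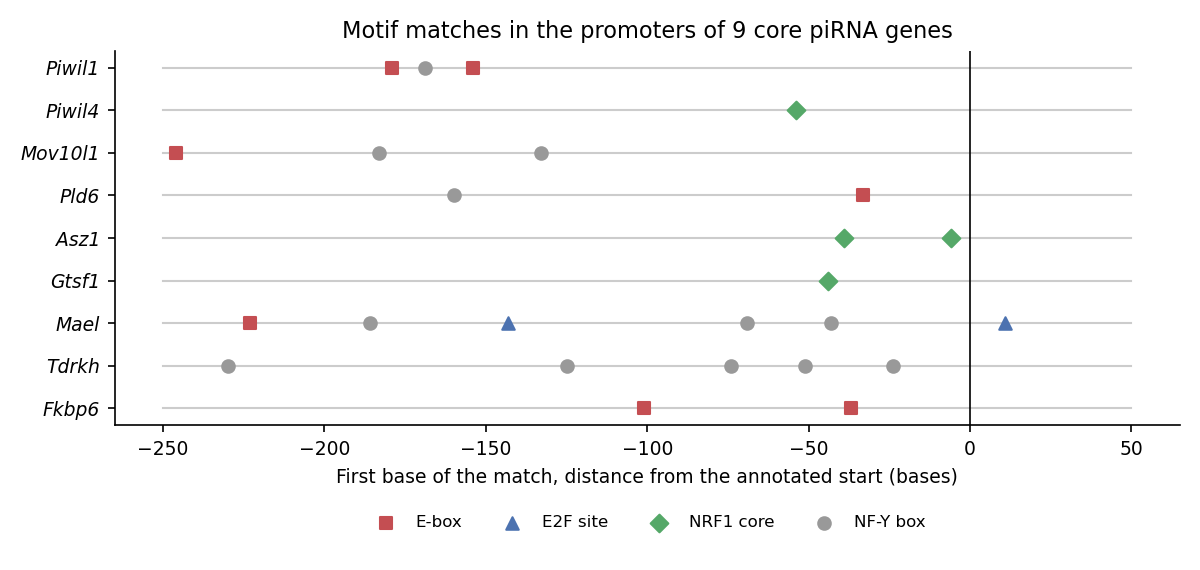
Positions of 4 motifs in the promoters of 9 members, with the distance of the first base of each match from the annotated start on the x axis in bases and 1 line per gene. E-boxes sit in 5 genes, at 33 to 246 bases before the start, and NRF1 cores sit in the 3 genes Asz1, Gtsf1 and Piwil4, at 6 to 54 bases before it.

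The labelled cell type was checked with marker genes. Of 8 germ cell markers all were above 1 FPKM in every group, and Pou5f1, a pluripotency factor of PGCs, lay between 371 and 795 FPKM. Dazl, an RNA-binding protein of gonadal germ cells, was lower at E9.5 (2.24 FPKM) than in the other groups. Among the markers of other cells, the blood marker Ptprc was at 0 in the stage tables, and the endothelial markers Kdr and Cdh5 reached at most 0.207 and 0.332 FPKM. The other endothelial markers were higher: Pecam1, an adhesion protein also made by germ cells, lay between 40.5 and 98.5 FPKM, and Esam reached 10.1 FPKM. Of the gonadal soma markers, Cyp11a1 of steroid-making cells reached 5.70 FPKM, Amh of Sertoli cells 4.01 FPKM and Sox9 0.557 FPKM. Embryonic globins stood out at E9.5, with Hbb-y at 869 FPKM. Tet1 itself stood at 6.36 FPKM in wild type against 0.218 FPKM in Tet1-KO. The stage tables were scaled separately, so an E11.5 value differs between them by a constant factor. Values of the E9.5 table times 0.870, and of the E13.5m table times 0.976, reach the scale of the E13.5f table. That scale is called the common scale here. The knockout comparison has no E11.5 value, so Tet1-KO values were multiplied by 0.962, the median ratio of E13.5f to its wild-type values. That factor takes E13.5f and this wild type to be the same group, which no label states. The knockout table's wild-type column and the E13.5f column held nearly the same values: their ratio was between 1.04 and 1.06 for 9 members and was 0.927 for Piwil1, which is the lowest. The comparison of E11.5 with E13.5f and the knockout comparison therefore appear to share the E13.5 wild-type libraries, and the members' values in the 2 tables are not independent. If E13.5f is those libraries, it was made from 500 to 2000 cells a sample, while E9.5, E11.5 and E13.5m came from 400 to 5000 cells, and this set of libraries cannot be told apart from stage or sex.

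**Figure D2:**
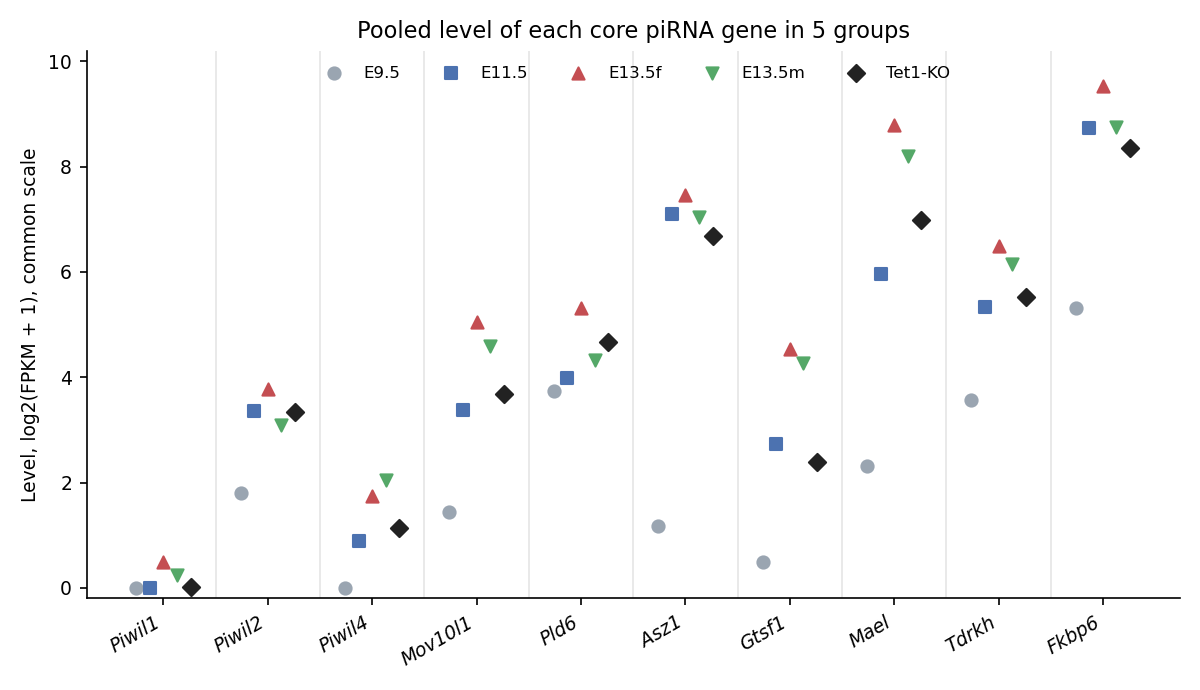
Level of each member as log2(FPKM + 1) on the common scale, with genes on the x axis and 1 symbol per group. Each symbol is 1 value pooled by the authors, with no error; Fkbp6 is highest in each group and Piwil1 is at or near 0 throughout.

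On FPKM, which allows genes to be compared per length, the members differed widely in level. Fkbp6, a co-chaperone that acts with heat shock protein 90 in piRNA loading, was the highest in each of the 5 groups and made up between 43.1% of the members' summed FPKM at E13.5m and 60.5% at E11.5. It reached 735 FPKM at E13.5f, above 99.5% of all rows in that column. The RNAs of the PIWI genes were a small share of the members' summed FPKM. Piwil1, Piwil2 and Piwil4 together made up 3.46% of it at E9.5, 1.44% at E11.5, 0.9997% at E13.5f, 1.09% at E13.5m and 1.60% in Tet1-KO. Among all rows Piwil2 was not low, since its 12.7 FPKM at E13.5f lay above 73.5% of them. No protein was measured. The order of the 4 highest, Fkbp6, Mael, Asz1 and Tdrkh, was the same at E13.5f, E13.5m and in Tet1-KO. Mael lay below Asz1 at E11.5 (61.2 against 137 FPKM) and above it at E13.5f (442 against 175 FPKM). No spread over libraries is given for these levels, so which neighbours in the order differ beyond it cannot be said.

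Between E9.5, when PGCs migrate, and E11.5, when they have entered the gonad, 5 of the 9 members with a completed test rose and 0 fell in the authors' deposited table: Asz1, Mael, Fkbp6, Mov10l1 and Tdrkh. Of all tested genes 3.71% rose and 1.92% fell. Their increases ran from 3.59-fold (Tdrkh) to 109-fold (Asz1). In such bulk samples, more cells of a type and more RNA per cell cannot be told apart. The median change of the 9 members was 2.00 on the log2(FPKM + 1) scale, a scale that understates changes of low genes, beside 0.29 over all tested genes. Relative to the median log2 ratio of all genes at 1 FPKM or more, which was 0.32, 3 members (Asz1, Fkbp6 and Mael) rose, where 1.87% of all genes rose and 2.79% fell.

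Asz1, a scaffold on the mitochondrial outer membrane on which piRNA precursors are processed (chromosome 6, 18000963 to 18059061 in build mm9, as for all gene positions below), was at 1.44 FPKM at E9.5 and 157 FPKM at E11.5. The log2 ratio was 6.77 ± 1.16 (SE implied by the deposited test), with a q-value of 1.11e-06 in the authors' deposited table. Asz1 thus went from the seventh place in level among the members to the second. Fkbp6 (chromosome 5, 135767573 to 135825861) was at 44.4 FPKM at E9.5 and 488 FPKM at E11.5, a log2 ratio of 3.46 ± 0.52 (SE) with a q-value of 1.04e-08 in the authors' deposited table. Mael, the maelstrom protein of germ granules (chromosome 1, 168131515 to 168168875), was at 4.58 FPKM and then at 70.4 FPKM, with a log2 ratio of 3.94 ± 0.81 (SE).

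Mov10l1, the helicase that feeds precursors into processing (chromosome 15, 88813423 to 88885582), went from 1.96 to 10.8 FPKM, with a log2 ratio of 2.46 ± 0.77 (SE). Pld6, the mitochondrial nuclease that cuts precursors (chromosome 11, 59597394 to 59601159), was at 14.2 FPKM at E9.5 and 17.1 FPKM at E11.5. Its log2 ratio of 0.26 ± 0.61 (SE) was within the error. At E9.5 Pld6 was the second highest member after Fkbp6. Tdrkh, a Tudor and KH domain protein that holds PIWI proteins at mitochondria (chromosome 3, 94217239 to 94235421), rose from 12.5 to 45.0 FPKM. RefSeq lists the protein-coding gene Oaz3 as overlapping Tdrkh, and no source used here states that the counting used strand, so their reads may not be separable.

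The remaining members were not called. Piwil2, the PIWI protein of PGCs and fetal germ cells (chromosome 14, 70772286 to 70828901), was at 2.85 and 10.6 FPKM, a log2 ratio of 1.90 ± 0.68 (SE) with a q-value of 0.0746 in the authors' deposited table. Gtsf1, a zinc finger partner of PIWI proteins (chromosome 15, 103232889 to 103260858), was at 0.470 and 6.44 FPKM, with a q-value of 0.0830 in the authors' deposited table. Piwil4, the PIWI protein that enters the nucleus in fetal male germ cells (chromosome 9, 14506801 to 14545177), was listed at 0 at E9.5 and at 0.988 FPKM at E11.5. Piwil1, which acts in meiotic and postmeiotic male germ cells (chromosome 5, 129242120 to 129261349), was listed at 0 at both stages. Blood markers moved with this comparison: their summed level over 4 genes was 1500 FPKM at E9.5 and 20.8 FPKM at E11.5, and 3 of 3 tested fell. The sum of 8 gonadal soma markers was 0.107 FPKM at E9.5 and 2.99 FPKM at E11.5. Of 2 endothelial markers tested, Esam rose from 0.141 to 10.1 FPKM and Pecam1, at 60.4 and 70.8 FPKM, was not called. The part of these 3 lists in the members' rises was not tested.

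**Figure D3:**
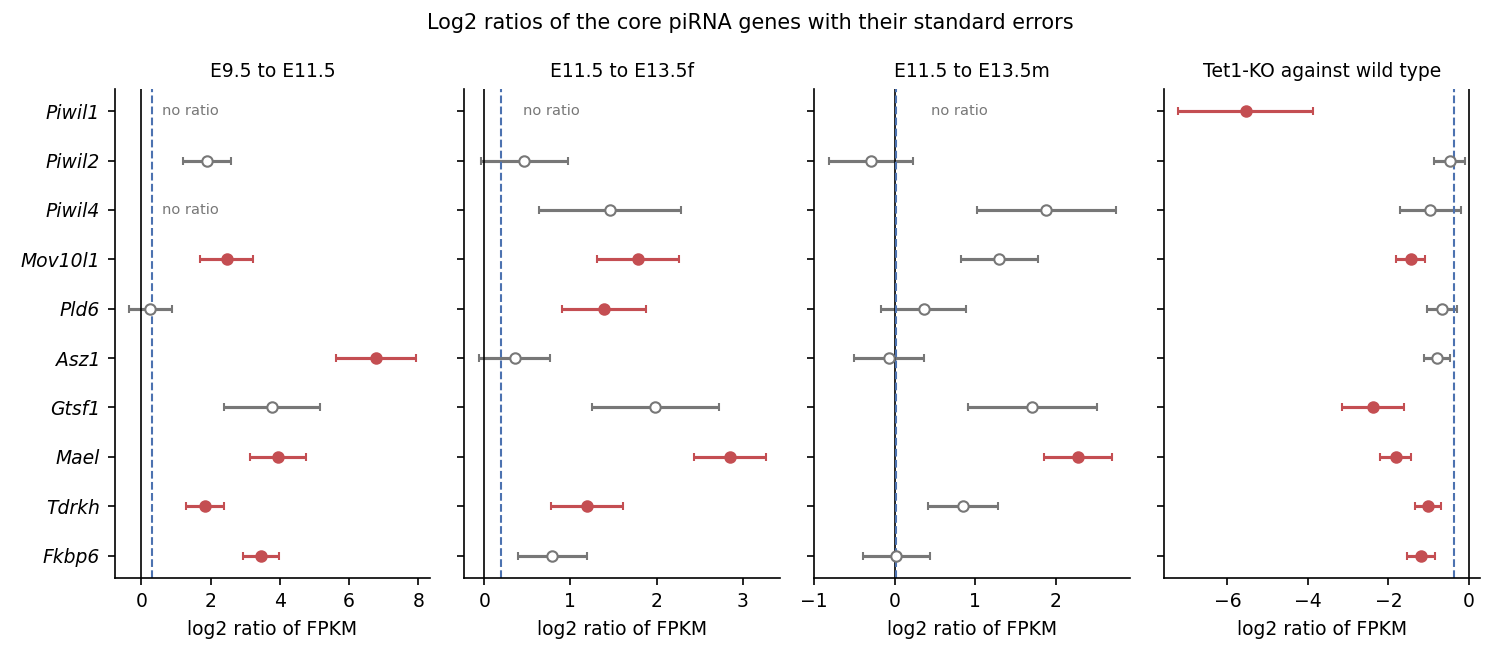
Log2 ratio of FPKM of each member in the 4 deposited comparisons, with bars of 1 standard error implied by the deposited test. Filled red points were called at a q-value or FDR under 0.05, open grey points were not, and the dashed line is the median over the genes with at least 1 FPKM in both groups; Mael was called in all 4.

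From E11.5 to E13.5f, 4 of 10 tested members rose and 0 fell: Mael, Mov10l1, Pld6 and Tdrkh. Of all tested genes 9.34% rose and 2.68% fell in the authors' deposited table. Mael went from 61.2 to 442 FPKM, which placed it above 98.9% of all rows at E13.5f. Its log2 ratio was 2.85 ± 0.42 (SE), with a q-value of 3.85e-09 in the authors' deposited table. Mov10l1 rose from 9.38 to 32.2 FPKM, with a log2 ratio of 1.78 ± 0.48 (SE). Pld6, which had not been called before E11.5, rose from 14.8 to 38.8 FPKM, and Tdrkh rose from 39.1 to 89.3 FPKM.

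Of the 5 members that had risen by E11.5, Asz1 and Fkbp6 were not called in this interval. Asz1 was at 137 and 175 FPKM, a log2 ratio of 0.35 ± 0.41 (SE), and Fkbp6 at 425 and 735 FPKM, a log2 ratio of 0.79 ± 0.40 (SE). Of those not called by E11.5, Gtsf1, at 5.60 and 22.2 FPKM, had the second largest log2 ratio of the members, 1.99 ± 0.74 (SE), and a q-value of 0.0570 in the authors' deposited table, just outside the threshold. Among the PIWI genes, Piwil2 was at 9.24 and 12.7 FPKM, Piwil4 at 0.860 and 2.36 FPKM, and Piwil1 at 0 and 0.409 FPKM. The 10 members had a median change of 1.01 on the log2(FPKM + 1) scale, beside 0.22 over all tested genes. Relative to the median log2 ratio of 0.19, Mael and Mov10l1 rose, where 6.74% of all genes rose and 4.01% fell, and Pld6 and Tdrkh were no longer called. The endothelial marker Esam fell here from 8.81 to 0.894 FPKM and the globin Hba-x from 8.60 to 0.173 FPKM. The blood sum was 18.1 FPKM at E11.5 and 1.45 FPKM at E13.5f, and the gonadal soma sum 2.60 and 1.55 FPKM. The part of these markers in the members' values was not tested.

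From E11.5 to E13.5m, 1 of 9 tested members rose and 0 fell, where 2.94% of all tested genes rose and 1.94% fell in the authors' deposited table. That member was Mael, at 62.7 FPKM at E11.5 and 302 FPKM at E13.5m, a log2 ratio of 2.27 ± 0.42 (SE) with a q-value of 1.75e-05 in the authors' deposited table. Mov10l1 was at 9.61 and 23.6 FPKM, with a q-value of 0.0892 in the authors' deposited table. Gtsf1 was at 5.74 and 18.7 FPKM and Tdrkh at 40.1 and 72.2 FPKM, and neither was called.

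The PIWI genes showed no call in E13.5m either. Piwil4 was at 0.881 and 3.24 FPKM, a log2 ratio of 1.88 ± 0.86 (SE). Piwil2 was at 9.46 and 7.69 FPKM, a log2 ratio of -0.30 ± 0.52 (SE). Piwil1 was at 0 and 0.186 FPKM with no completed test. Asz1, at 140 and 133 FPKM, and Fkbp6, at 435 and 440.3 FPKM, had log2 ratios of -0.07 ± 0.43 (SE) and 0.02 ± 0.42 (SE). The median change of the 9 members was 0.83 on the log2(FPKM + 1) scale, beside 0.05 over all tested genes. Relative to the median log2 ratio of 0.02, Mael was again the 1 member called, where 3% of all genes rose and 2.09% fell. The 2 comparisons after E11.5 share the E11.5 libraries. The summed level of the 8 gonadal soma markers was 2.67 FPKM at E11.5 and 12.6 FPKM at E13.5m, with Amh of Sertoli cells rising from 0.129 to 4.01 FPKM. Esam fell from 9.03 to 0.503 FPKM, and the blood sum was 18.5 and 16.4 FPKM with no call. Whether these markers have a part in the members' values was not tested.

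No deposited table sets E13.5m against E13.5f, so the log2 ratios against E11.5 were subtracted and tested over 11314 genes, with SEs from the deposited statistics. Of 9 members tested 0 passed (normal two-sided test, Benjamini-Hochberg adjusted), where 0.115% of all genes passed as higher in E13.5m and 0.0354% as higher in E13.5f. The members also gave 0 at an unadjusted p under 0.05 in this normal test. Only 411 of the 11314 genes met that level, so 0 of 9 says little about the members. On the common scale, 9 of 10 members had a higher level in E13.5f, among them Piwil1 at 0.409 against 0.182 FPKM. The share of all genes with a higher level in E13.5f was not computed, so this count is not shown to be particular to the members. The median difference of the 9 tested members was -0.48 on the log2 scale, and that of all genes was -0.24.

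Pld6 had the difference furthest from 0, at 38.8 FPKM in E13.5f and 19.0 FPKM in E13.5m on the common scale. Its log2 difference was -1.03, with a 95% interval from -2.43 to 0.38. For Fkbp6 the difference was -0.77 (-1.91 to 0.36) and for Mael -0.58 (-1.74 to 0.58). Piwil4 was the 1 tested member with a higher value in E13.5m, at 3.16 against 2.36 FPKM, with a difference of 0.42 (-1.92 to 2.76). These intervals count the error of the shared E11.5 libraries in both ratios and are wide: they leave room for differences of 2-fold in each of the 9, so the groups are not shown to be alike.

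**Figure D4:**
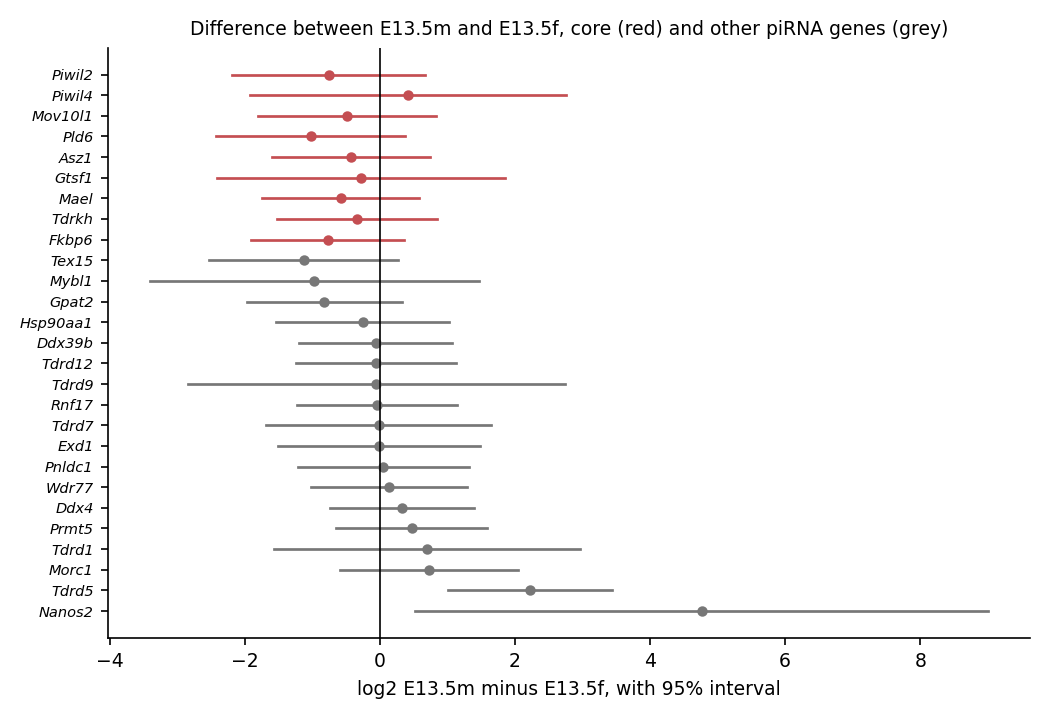
E13.5m minus E13.5f on the x axis, as the difference of their log2 ratios to E11.5, with 95% intervals, for 9 members (red) and 18 other piRNA pathway genes (grey). All 9 red intervals include 0; Tdrd5 and Nanos2 have intervals above 0 but neither passed the adjusted test.

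In Tet1-KO at E13.5, 6 of 10 members were called lower than in wild type and 0 higher: Gtsf1, Mael, Mov10l1, Fkbp6, Tdrkh and Piwil1. Of all tested genes 5.48% were called lower and 0.677% higher in the authors' deposited table. All 10 members had a lower value in Tet1-KO, and their median change was -0.89 on the log2(FPKM + 1) scale, beside -0.21 over all tested genes. The share of all genes with a lower value was not computed, so the shared direction is not shown to be particular to the members. Genes with at least 1 FPKM in both groups had a median log2 ratio of -0.38. Relative to it only Mael fell among the members, where 1.65% of all genes fell and 1.92% rose. The count of 6 thus holds for the deposited scaling, and the count under the shifted scaling was 1.

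The level of Mael was 463 FPKM in wild type against 131 FPKM in Tet1-KO. Its log2 ratio was -1.82 ± 0.38 (SE), and the authors' deposited table gave it an FDR of 0.000256. It was -1.44 relative to the median of all genes (adjusted p 0.0095, normal two-sided test). Mov10l1 was at 33.5 and 12.3 FPKM, a log2 ratio of -1.45 ± 0.37 (SE), and its FDR was 0.00442 (the authors' deposited table). Relative to the median its adjusted p was 0.0753 by the same normal test. Gtsf1 was at 23.0 and 4.42 FPKM, a log2 ratio of -2.38 ± 0.78 (SE), the largest decrease in log2(FPKM + 1) among the members. In the authors' deposited table its FDR was 0.0396, close to the threshold of 0.05.

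Fkbp6 fell from 772 FPKM in wild type to 339 FPKM in Tet1-KO, with a log2 ratio of -1.19 ± 0.34 (SE). Tdrkh was at 94.0 and 46.8 FPKM, a log2 ratio of -1.01 ± 0.33 (SE). The call of Piwil1 rests on levels under 1 FPKM: 0.379 FPKM in wild type against 0.00813 FPKM in Tet1-KO. The authors' deposited table gave it an FDR of 0.0231. The members not called were Asz1, at 184 and 106 FPKM, Pld6, at 40.4 and 25.5 FPKM, Piwil2, at 13.3 and 9.55 FPKM, and Piwil4, at 2.45 and 1.26 FPKM. Of the 5 members whose promoter held the E-box, 4 were called lower, all but Pld6. Of the 4 without it, Gtsf1 and Tdrkh were called lower and Asz1 and Piwil4 were not called. This split was not tested, and 1 of the 4 called with an E-box is Piwil1, below 1 FPKM. The share called lower among all genes with an E-box, or without one, was not computed. The split is therefore not shown to link the E-box with the calls. Relative to the median the calls were Mael alone among the 5 and 0 among the 4.

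Markers moved in the knockout comparison as well. The germ cell gene Dazl fell from 1491 to 671 FPKM, and Tcfap2c (the listed name of Tfap2c) rose from 122 to 226 FPKM, while the sum of the 8 germ cell markers was 3614 FPKM in wild type against 2538 FPKM in Tet1-KO. Pecam1, at 71.3 and 98.5 FPKM, was not called in the deposited scaling and rose relative to the median. The sum of the 6 gonadal soma markers with a row was 1.50 FPKM in wild type against 5.96 FPKM in Tet1-KO, with none of the 6 called. The part of these in the members' values was not tested. Set side by side on the common scale, with no test across tables, the Tet1-KO levels were above those of E11.5 for 6 members and below them for 4. Mael was at 61.2 FPKM at E11.5, 126 FPKM in Tet1-KO and 442 FPKM at E13.5f. Fkbp6 was at 425, 326 and 735 FPKM in the same order, and Gtsf1 at 5.60, 4.25 and 22.2 FPKM. Piwil1 is among the 6 members above E11.5, at 0.00782 FPKM in Tet1-KO against 0 at E11.5. Tet1-KO was below E13.5m for 8 of 10 members, with Piwil2 and Pld6 the exceptions. The matching shares of all genes were not computed, so these counts are not shown to be particular to the members. Tet1-KO values were lower in general, with a median log2 ratio to wild type of -0.38 over genes at 1 FPKM or more.

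The wider pathway was read from a list of 25 further genes. Among them are Tudor proteins and helicases, the 3′ end methyltransferase and the arginine methylation enzymes that mark PIWI proteins. The DNA methylation machinery that piRNAs direct is also listed. Other genes on the list fall outside these classes or are less particular to the pathway, such as Nanos2, Mybl1, Hsp90aa1 and Mov10. Calls of Nanos2 and Mov10 are counted below but are not shown to concern the piRNA pathway. The name other piRNA pathway genes stands for all 25. Of these, 24 had a row in the stage tables and 22 in the knockout table. From E9.5 to E11.5, 4 of 18 tested rose and 0 fell, where 3.71% of all tested genes rose and 1.92% fell. They were Ddx4, the vasa helicase, from 10.3 to 176 FPKM, Tdrd12, from 7.68 to 107 FPKM, Gpat2, a mitochondrial partner of piRNA processing, from 4.77 to 47.0 FPKM, and Rnf17, from 6.74 to 24.2 FPKM. Rnf17 was no longer called relative to the median (adjusted p 0.0855, normal test). Not called were Tdrd7, at 0.125 and 2.37 FPKM, and Pnldc1, the nuclease that trims piRNAs, at 14.0 and 39.7 FPKM. The arginine methyltransferase Prmt5 and its partner Wdr77 were at 169 and 183 FPKM already at E9.5 and were not called in any of the 4 comparisons.

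At E13.5f, where 9.34% of all tested genes rose and 2.68% fell, 3 of 18 tested rose (Gpat2, from 40.9 to 194 FPKM, Tdrd7, from 2.06 to 8.44 FPKM, and Tex15, from 4.39 to 12.0 FPKM) and Morc1, a transposon silencing factor, fell from 29.2 to 10.4 FPKM. Tex15 was no longer called relative to the median (adjusted p 0.0860, normal test). Exd1, a partner of piRNA biogenesis, was at 5.38 and 12.5 FPKM and Rnf17 at 21.1 and 43.3 FPKM, and neither was called. At E13.5m, 5 of 20 tested rose and 0 fell, where 2.94% of all tested genes rose and 1.94% fell. Nanos2, an RNA-binding protein of male germ cells, rose from 0.0626 to 25.3 FPKM, and Tdrd5, a Tudor protein, from 23.4 to 75.4 FPKM. Tdrd1, which binds Piwil2, rose from 0.390 to 2.79 FPKM, Tdrd7 from 2.11 to 8.53 FPKM and Gpat2 from 41.9 to 113 FPKM. Not called were Henmt1, the piRNA 3′ end methyltransferase (listed as 4921515J06Rik), at 0.346 and 2.94 FPKM, and Ddx4, at 157 and 344 FPKM. Dnmt3l, the cofactor of de novo DNA methylation, was at 0.155 and 0.879 FPKM, and was not called. In the test of E13.5m against E13.5f 0 of 18 passed after adjustment. The largest differences were those of Nanos2, 4.76 ± 2.16 (SE) on the log2 scale, and Tdrd5, 2.23 ± 0.62 (SE), the latter at 73.6 FPKM in E13.5m on the common scale and 15.7 FPKM in E13.5f, with an adjusted p of 0.123 by the normal test.

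**Figure D5:**
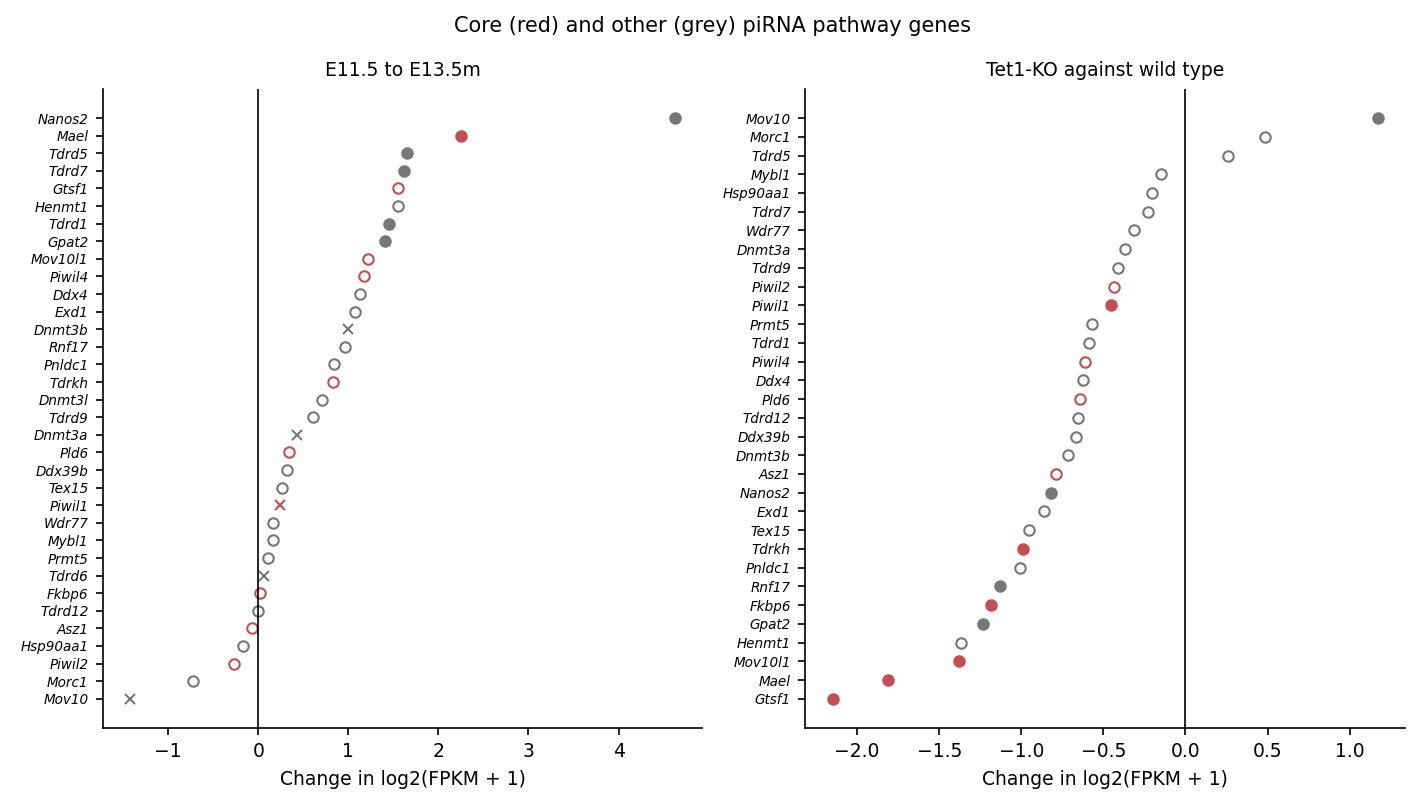
Change in log2(FPKM + 1) on the x axis from E11.5 to E13.5m (left) and from wild type to Tet1-KO (right) for the core genes (red) and the other piRNA pathway genes (grey), ordered by change. Filled symbols were called, open ones were not and crosses had no completed test; on the right all 10 red points lie below 0, and Mov10 is the 1 call above it.

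In Tet1-KO the wider list had 3 of 22 genes called lower and 1 called higher, where 5.48% of all tested genes were called lower and 0.677% higher. Gpat2 had 205 FPKM in wild type against 86.8 FPKM in Tet1-KO, and Rnf17 at 45.4 and 20.2 FPKM. Nanos2 was called from 0.809 and 0.0247 FPKM. Mov10, the somatic relative of Mov10l1, rose 2.30-fold, from 24.4 to 56.2 FPKM. Its FDR was 0.00235 (the authors' deposited table) and its log2 ratio was 1.58 relative to the median of all genes. Its germline relative Mov10l1 had a log2 ratio of -1.45 in the same table. Mov10 was at 84.6 FPKM at E11.5 and 23.3 FPKM at E13.5f, with no completed test. Relative to the median, none of the 3 lower genes was called and Mov10 was called. The 22 genes had a median change of -0.60 on the log2(FPKM + 1) scale, beside -0.21 over all tested genes. Henmt1 was at 4.25 and 1.04 FPKM, and Pnldc1 at 62.9 and 30.8 FPKM, and neither was called.

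The members' profiles over the 4 comparisons were compared by the Euclidean distance of their changes in log2(FPKM + 1) from the median of the members, which was 1.88, 1.01, 0.59 and -0.89. Piwil1 is included here also where it had no completed test, so 1.88 and 0.59 differ from the 2.00 and 0.83 given above. The comparisons share the E11.5 and, it appears, the E13.5 wild-type libraries, and a distance over 4 values describes likeness only. Tdrkh was the member nearest to that median, at a distance of 0.330. Asz1 was the furthest, at 4.25, with its change of 6.02 before E11.5, and Mael followed at 3.19. Among 8997 other genes at 5 FPKM or more in a group, the 5 nearest were Bhmt2, Neil3, Trafd1, Pigw and Gstm4, at distances from 0.339 to 0.359. These genes lay nearer to the median than every member but Tdrkh, since the next member, Mov10l1, was at 1.04. They are the nearest of 8997 genes, so small distances follow in part from the size of that pool and say nothing about the members. By the members' own distances, the median profile describes few of them closely.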

How the data were processed

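RNA was purified from 400 to 5000 or from 500 to 2000 PGCs a sample, and 2 to 70 ng of amplified cDNA was sheared for library construction, per the labels' protocols. Tools named in the submitters' processing notes are TopHat 1.3.1, Bowtie, Cufflinks and Cuffdiff (versions 1.2.1 and 1.0.3), with mm9 as the build. Each of the 4 tables holds 1 FPKM value per group, pooled by the authors, and, per the file headers, a q-value or FDR beside its p-value. The log2 ratio was also deposited by the authors, and the test statistic for the stage comparisons only. In the knockout comparison 2182 genes have a deposited FDR above 1.

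Calls are the authors' own at 0.05 over rows with a completed test. Log2 ratios were computed again from the FPKM values. Their SE is the ratio over the deposited statistic, or, in the knockout table, over the normal deviate that its p-value gives. The test relative to the median and the E13.5m against E13.5f test use these SEs in a two-sided normal test. Both were adjusted by Benjamini-Hochberg over all genes with an SE and were run on simulated data. The simulation drew independent errors from these same SEs. It therefore cannot show whether the SEs are right or what the shared E11.5 libraries do. A gene listed at 0 in a group has no ratio or SE. Members and lists were chosen with earlier results of these data known, so no set test was made. All 10 members are named in each comparison, with up to 6 called and 2 other genes of the wider list by size of change, and the 5 nearest profiles. Prmt5, Wdr77 and Dnmt3l were named in addition, after their values were seen. Older symbols came from RefSeq (GRCm38.p6). Depth is unknown, so no counting interval was computed. Python 3.11.15, pandas 2.3.3, numpy 2.4.6, scipy 1.17.1 and matplotlib 3.10.9 were used.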

Additional observations from a re-analysis of the deposited data

How the results depend on the processing

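Each count of core members kept its direction under each setting tried. With a threshold of 0.01, the core members called were 3 from E9.5 to E11.5, 2 from E11.5 to E13.5f and 2 in Tet1-KO, and the other pathway genes called were 1 from E11.5 to E13.5f, 3 from E11.5 to E13.5m and 2 in Tet1-KO. Centred on the median of all genes, the core members called were 3, 2 and 1 in the same 3 comparisons, and 1 other pathway gene was called in Tet1-KO, the higher Mov10. The members' median change from E9.5 to E11.5 was 3.44 with a pseudocount of 0.1 FPKM, and in Tet1-KO it was -0.51 after centring. The cause was not tested beyond the construction of each setting. A new adjustment of the p-values, a floor of 1 FPKM, a log2 change of at least 1 and 1 row per symbol left each count within 1.5 times. The count of 0 members passing between E13.5m and E13.5f was also 0 with centring. Mael was called in all 4 comparisons under both settings. Mov10l1 in Tet1-KO was called at 0.01 and lost by centring, and Fkbp6, Gtsf1, Tdrkh and Piwil1 there were lost under both.

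No paired analysis was possible because each group is deposited as 1 pooled value, and for the same reason leaving out a library was not run. FPKM values give no depth, so the counting error of genes under 1 FPKM, such as Piwil1, is unknown.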
